A study of Mus musculus with 6 samples.

Results

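The regions described here are the 5-hydroxymethylcytosine (5hmC) peaks of mouse fibroblasts after 3 days of doxycycline, set against the 5hmC peaks of an induced pluripotent stem (iPS) cell line. They are all 116087 peaks of the day-3 list and all 174079 peaks of the iPS list, 290166 of the 663518 peaks in the 6 lists of the series. Peaks of the lists were paired where they overlapped by at least 1 bp, once over the whole lists and once over equally many of the best-scoring peaks. The cells came from a secondary reprogramming system of the strain OG2-GFP/Rosa26-M2rtTA, in which doxycycline switches on Tet1, Sox2, Klf4 and c-Myc. The day-3 cells were fibroblasts from TSKM-iPS mice, moved at passage 4 from fibroblast medium to embryonic stem cell medium with doxycycline for 3 days. The iPS cells were 1 line from the same system at passage 10 to 15, grown on inactivated feeder fibroblasts that were cleared by a short plating step. The sources used here do not say whether the iPS cells still received doxycycline. Uninduced fibroblasts at passage 4 were also profiled, and 5-methylcytosine (5mC) was profiled at all 3 stages. Each stage and mark has 1 library, so no replicate error exists and no p-value is given. The labelled cell types were not checked against marker genes, because genes were not assigned to peaks here.

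5mC is the methyl mark that DNA methyltransferases place on cytosines, mostly at CpG. TET enzymes, of which Tet1 is one, oxidise it to 5hmC, which is both a step towards the removal of methylation and a lasting mark in its own right. Pluripotent cells express Tet1 and Tet2 and are known for 5hmC at enhancers and in the bodies of active genes. In this system the enzyme that makes 5hmC is itself among the induced factors. A peak list records where the captured mark exceeded a threshold in a whole culture, so a mark on few cells and a mark on few molecules of each cell cannot be told apart.

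The iPS list was the longer, and the lists shared a minority of their sequence. The iPS list held 1.50 times as many peaks as the day-3 list and covered 186.6 Mb against 127.3 Mb. Sequence inside peaks of both lists came to 50.5 Mb, or 19.2% of the 263.4 Mb that either covers. Peak widths were alike, with a median of 925 bp at day 3 (quartiles 767 and 1208) and 906 bp in iPS cells (740 and 1200). Neighbouring peaks lay closer in the iPS list, with a median gap of 2.92 kb against 4.72 kb. The number of reads behind each list is unknown, and a deeper library gives more peaks from the same DNA.

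Of the day-3 peaks, 56081 overlapped an iPS peak and 60006 did not, a share with a counterpart of 48.3% (95% Wilson interval 48.0 to 48.6, for counting error only). Of the iPS peaks, 57245 overlapped a day-3 peak and 116834 did not, a share with a counterpart of 32.9% (32.7 to 33.1). These 2 shares are the background for the counts of overlapping peaks below. Where peaks met, they usually met as a pair: 92.7% of the day-3 peaks with a counterpart touched a single iPS peak, and at most 5 iPS peaks fell on 1 day-3 peak. In the other direction up to 7 day-3 peaks fell on 1 iPS peak.

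The overlaps were mostly deep and the centres close, so few of the pairs rest on touching edges. In the 46792 pairs of exactly 1 peak from each list, the centres lay a median of 146.5 bp apart, and 84.0% of them within 500 bp. The median share of a day-3 peak covered by its counterpart was 86.1%, and 85.5% of the paired day-3 peaks were covered over at least 50% of their length. Overlaps of less than 100 bp made up 1.99% of the paired day-3 peaks. Paired peaks were of like width in both lists, with medians of 971 bp at day 3 and 991 bp in iPS cells. The iPS peak was at least 2 times as wide in 8.84% of pairs, and the day-3 peak in 7.09%. Across pairs, Spearman's rho between the lists was 0.25 for width and 0.11 for the peak caller's score, as a description over 46792 pairs that come from 1 library a side.

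Peaks without a counterpart were often close to the other list. Of the 60006 unpaired day-3 peaks, 13838, or 23.1%, had an iPS peak within 1 kb, and 60.2% had one within 5 kb. Their median distance to the nearest iPS peak was 3.31 kb. Unpaired iPS peaks were a median of 4.79 kb from the nearest day-3 peak, and 16.7% had one within 1 kb. More than 100 kb from the other list lay 3.04% of the unpaired day-3 peaks and 2.83% of the unpaired iPS peaks. If a gap of up to 1 kb counted as overlap, a setting chosen after the data were seen, 60.2% of the day-3 list and 44.1% of the iPS list had a counterpart.

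Strong peaks of either list were more often present in the other, while few of the 1000 best peaks met the 1000 best of the other list. Each list was ranked by score into 10 equal groups. From the lowest to the highest group, the share of day-3 peaks with a counterpart went from 38.3% (37.5 to 39.2) to 71.6% (70.8 to 72.4). The share of iPS peaks with a counterpart went from 21.2% (20.6 to 21.8) to 57.1% (56.3 to 57.8). Peaks of the highest group were also wider, with medians of 1945 bp at day 3 and 2001 bp in iPS cells against 694 bp and 683 bp in the lowest. Among peaks of at least 3 kb, 86.2% of 1965 day-3 peaks and 70.5% of 2556 iPS peaks had a counterpart. A wider peak meets more peaks by its width alone. For all counted peaks of 800 to 1000 bp, a setting added after the data were seen, the shares were 44.4% and 30.2%. These peaks were not split by score, so whether the rise with score holds at like width was not tested.

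**Figure D1:**
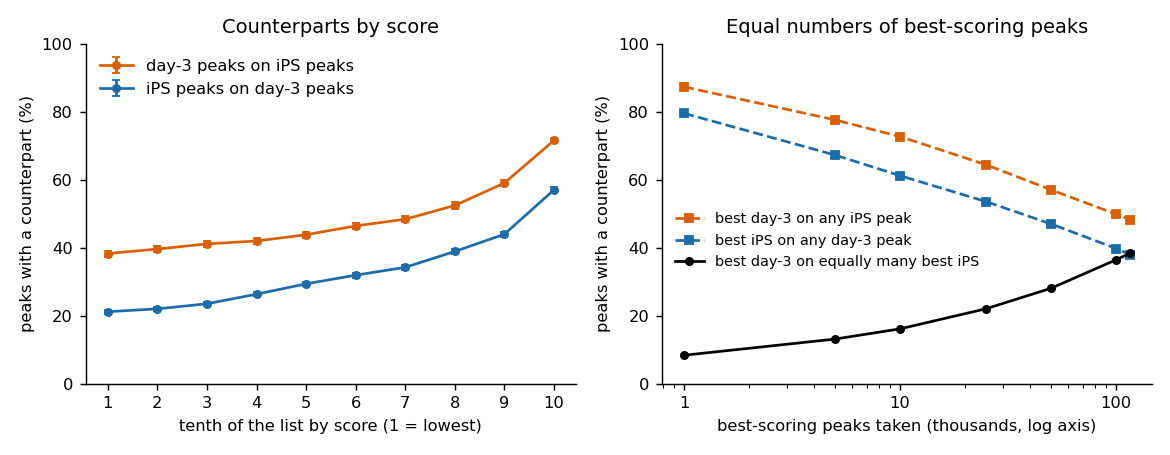
Left, share of 5hmC peaks with a counterpart in the other list (%, y axis) by score in 10 equal groups of the list (x axis), for day-3 peaks (orange) and iPS peaks (blue), with 95% Wilson intervals. Right, the same share for the best-scoring peaks against their number in units of 1000 (log axis), on the other list as a whole (dashed) and on equally many best-scoring peaks (black). The shares on the left are highest in the last group, at 71.6% and 57.1%, while the black line on the right starts at 8.40% for the best 1000 peaks.

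When the iPS list was limited to its 116087 strongest peaks, the length of the day-3 list, 38.4% of the latter (38.2 to 38.7) had a counterpart. With 50000 from each list the share was 28.1%, and with 10000 it was 16.2%. Fewer iPS peaks to meet lower this share by themselves, and the share expected without any link was not computed. Of the 1000 best day-3 peaks 84 overlapped one of the 1000 best iPS peaks, or 8.40% (6.84 to 10.3). Yet 87.4% of those 1000 day-3 peaks overlapped some iPS peak. The best iPS partners of these peaks had a median score percentile of 89.0 within the iPS list, so most lay in its upper part but outside its top 1000. The 1000 best iPS peaks overlapped some day-3 peak in 79.6% of cases, with partners at a median percentile of 85.1 of the day-3 list. The median percentile of the iPS partners was lower for larger sets of day-3 peaks, at 78.1 for the best 10000 and 66.7 for all. Stronger day-3 peaks thus had stronger iPS partners in the median, and few of these were among the equally many best. The best partner was taken where a day-3 peak met several, and wider peaks can meet more. Whether the partner percentile still rises at like width was not tested. Across the 46792 pairs of single peaks, which leave no choice of partner, Spearman's rho between the scores was 0.11.

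The best-scoring day-3 peaks had iPS partners of varied rank. Their leading peak (chromosome 3, 126325534 to 126327856) scored 3230.1, and its iPS partner covered 887 of its 2323 bp with a score of 102.8. The next, on chromosome 13 from 100178628 to 100183101, scored 3217.8 and carried 2 iPS peaks that covered 1966 of 4474 bp, the better with a score of 138.9. On chromosome 9 from 99696136 to 99701276 the day-3 peak scored 3207.8 and its iPS partner 215.8. The fibroblast 5hmC list had no peak on any of these regions. On the fourth, on chromosome 1 from 154454584 to 154460759, 4 iPS peaks covered 4694 of 6176 bp, the best with a score of 418.1, within the highest of the 10 score groups of the iPS list. The widest paired day-3 peak, 25402 bp on chromosome 11 from 3075046 to 3100447, was covered almost whole by a peak of each of the 3 5mC lists and of the fibroblast 5hmC list, and over 22482 bp by 4 iPS 5hmC peaks, the best with a score of 3118.3. Scores depend on depth and were used for rank within a list. The score 3100 recurred on 258 day-3 and 45 iPS peaks, so peaks that share it are not ordered by strength.

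The strongest unpaired day-3 peaks sat beside iPS peaks rather than far from them. The best of them, 5608 bp on chromosome 19 from 40419986 to 40425593 with a score of 3143.2, had an iPS peak 0.59 kb away. Distances to the nearest iPS peak were 1.41 kb for the second, on chromosome 15 from 61870498 to 61877187, 0.445 kb for the third, on chromosome 2 from 30981736 to 30987290, and 1.03 kb for the fourth, on chromosome 17 from 13816545 to 13821424. The region on chromosome 15 was also the widest unpaired day-3 peak, at 6690 bp, and no 5mC list had a peak on it. In the iPS 5mC list none of these 4 regions had a peak. Across all unpaired day-3 peaks the median distance was 2.72 kb in the highest of 5 equal score groups and 3.65 kb in the lowest.

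The strongest unpaired iPS peaks lay mostly on sequence that carried 5mC at every stage. The best, 4348 bp on chromosome 2 from 76546812 to 76551159, had 4077 bp inside a fibroblast 5mC peak, 4252 bp inside a day-3 5mC peak and 4116 bp inside an iPS 5mC peak, and its nearest day-3 5hmC peak was 9.45 kb away. The third, 9049 bp on chromosome 4 from 125311828 to 125320876 and also the widest, had 5494, 6931 and 4986 bp inside 5mC peaks of the 3 stages and lay 261.0 kb from any day-3 5hmC peak. The fourth, 5765 bp on chromosome 2 from 179923656 to 179929420, had at least 5305 bp inside 5mC peaks of each stage. The second, on chromosome Y from 2897428 to 2902368, had no peak in any of the other 4 lists and a day-3 5hmC peak 0.605 kb away. Fibroblast 5hmC was listed at none of these 4 regions.

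On each of the other 4 lists, which took no part in the pairing, unpaired day-3 peaks had the lowest share of overlaps. Fibroblast 5mC peaks lay on 10.03% of unpaired day-3 peaks (9.79 to 10.3), on 46.1% of paired ones (45.7 to 46.6) and on 37.0% of unpaired iPS peaks (36.7 to 37.3). Day-3 5mC peaks lay on 20.8%, 61.4% and 50.8% of the same 3 classes, and iPS 5mC peaks on 3.68%, 24.2% and 22.7%. Unpaired iPS peaks thus stood nearer to the paired peaks than to the unpaired day-3 peaks in all 3 5mC lists. For fibroblast 5hmC the shares were 4.57%, 22.5% and 12.5%. Of the unpaired day-3 peaks 44530, or 74.2% (73.9 to 74.6), lay on no peak of these other 4 lists. That held for 28.2% of the paired day-3 peaks and 37.8% of the unpaired iPS peaks. No test of these differences was possible with 1 library a stage.

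**Figure D2:**
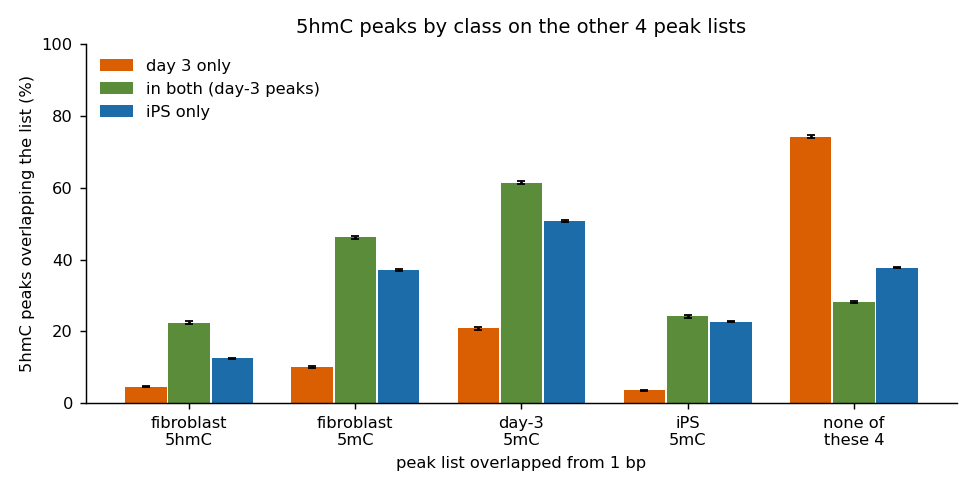
Share of 5hmC peaks (%, y axis) that overlap a peak of each other list, or of none of these 4 lists (x axis), for unpaired day-3 peaks (orange), paired day-3 peaks (green) and unpaired iPS peaks (blue), with 95% Wilson intervals for counting error. The orange bars are the lowest on each list and reach 74.2% for none.

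The unpaired day-3 peaks were also weaker, with a median score of 101.5 against 140.3 for paired ones, and narrower, at 875 bp against 994 bp. The contrast in 5mC was seen at every level of score. In the lowest of 5 score groups of the day-3 list, fibroblast 5mC lay on 7.35% of unpaired and 41.2% of paired peaks, and in the highest on 18.5% and 54.4%. Unpaired iPS peaks were of low score too, with a median of 95.2 and 866 bp. In the lowest score group of the iPS list 19.6% of them lay on fibroblast 5mC and in the highest 71.8%. For paired iPS peaks these shares were 21.4% and 72.9%. The shares themselves depended on how many peaks were kept. With the 50000 best peaks of each list, fibroblast 5mC lay on 21.65% of day-3 peaks unpaired among them and 66.1% of paired ones, and with the 10000 best on 44.1% and 86.6%. Unpaired here means without a partner among the equally many best iPS peaks. Of the 10000 best day-3 peaks 16.2% had such a partner, while 72.75% overlapped some iPS peak. The higher shares therefore include peaks that are paired over the whole lists. Over the whole lists, in iPS cells the frequency of fibroblast 5mC therefore followed the score more than the presence of a day-3 counterpart, and at day 3 it followed the counterpart more than the score.

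Read from the other side, the presence of 5mC went with whether a day-3 5hmC peak was also found in iPS cells. Day-3 5hmC peaks on fibroblast 5mC had an iPS counterpart in 81.1% of cases (80.7 to 81.6) and those off it in 35.9% (35.5 to 36.2), against 48.3% of the whole list. On the 5mC peaks of all 3 stages the share was 90.6% of 11911 peaks, and off all of them 29.2% of 65140. The day-3 peaks on fibroblast 5hmC had a counterpart in 82.1% of cases. For iPS 5hmC peaks the same splits were narrow, at 37.8% on and 29.6% off fibroblast 5mC, against 32.9% of the whole list. iPS peaks on fibroblast 5hmC had a day-3 counterpart in 46.5% of cases and those off it in 30.3%.

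The 5mC that accompanied a day-3 5hmC peak was less often listed in iPS cells where the 5hmC peak was unpaired. Among unpaired day-3 peaks on day-3 5mC, 1601 of 12497, or 12.8% (12.2 to 13.4), also lay on iPS 5mC. Among paired day-3 peaks on day-3 5mC it was 12333 of 34408, or 35.8% (35.3 to 36.4). Unpaired iPS peaks on day-3 5mC gave 38.1%. The iPS 5mC list held 61171 peaks against 165869 at day 3, which lowers each of these shares. The unpaired and paired day-3 classes together make up the 46905 day-3 5hmC peaks on day-3 5mC. The share over all of these therefore lies between 12.8% and 35.8%. The share over the whole day-3 5mC list was not computed. The strength of the 5mC peaks was not compared between the classes, so its part in the difference was not tested.

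Around the peak centres the classes had different profiles. At the centres of paired day-3 peaks 36.9% of positions were inside a fibroblast 5mC peak, and 1 kb away, towards higher coordinates, 16.1% were. For unpaired iPS peaks these values were 33.7% and 10.5%. For unpaired day-3 peaks they were 7.62% and 4.87%, with 4.02% at 600 bp and 7.29% at 5 kb. Day-3 5mC covered 15.9% of the centres of unpaired day-3 peaks, 8.44% of the positions at 600 bp and 11.9% of those at 5 kb. With iPS 5mC these values were 2.49%, 1.56% and 3.595%. Unpaired day-3 peaks thus had a local maximum of 5mC at the centre in each of the 3 lists, which in the iPS list stayed below the level at 5 kb. The unpaired iPS peaks had iPS 5mC on 19.4% of centres and 6.32% of positions at 5 kb.

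**Figure D3:**
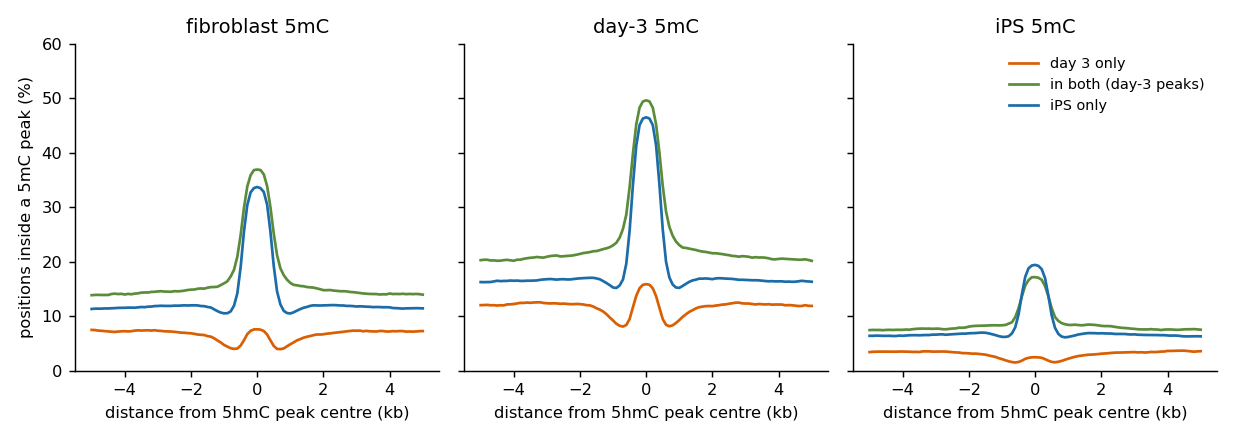
Share of positions inside a 5mC peak (%, y axis) against the distance from the centre of 5hmC peaks in kb (x axis), for the 5mC lists of fibroblasts, day 3 and iPS cells, with unpaired day-3 peaks in orange, paired day-3 peaks in green and unpaired iPS peaks in blue. At the centre the fibroblast values are 7.62%, 36.9% and 33.7%, and the orange line stays low across all 3 panels.

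The same contrast appeared over larger regions. Windows of 100 kb were compared by the length that 5hmC peaks cover, and a window counted as differing where 1 list covered at least 2 times the length of the other and at least 1 kb. Of 16780 windows with at least 1 kb in either list, 6001, or 35.8%, had at least 2 times as much in iPS cells, and 3214, or 19.2%, had at least 2 times as much at day 3. Windows without fibroblast 5mC peaks had at least 2 times as much at day 3 in 1252 of 2297 cases, or 54.5%, and at least 2 times as much in iPS cells in 23.6%. The remaining windows were ranked by fibroblast 5mC into 4 equal groups. In the group with the most (10.6 to 88.8 kb), 16 of 3620, or 0.442%, had more at day 3 by that measure and 46.8% had more in iPS cells. The groups between followed in order, with 35.5%, 14.5% and 3.70% for day 3 and 28.6%, 34.0% and 41.4% for iPS cells. Median covered length went from 1.78 kb to 12.8 kb at day 3 and from 1.05 kb to 24.6 kb in iPS cells across these groups. At the covered lengths of windows without fibroblast 5mC, 1 peak of usual width can decide whether a window differs. Over autosomes alone the day-3 share went from 52.5% to 0.445%.

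**Figure D4:**
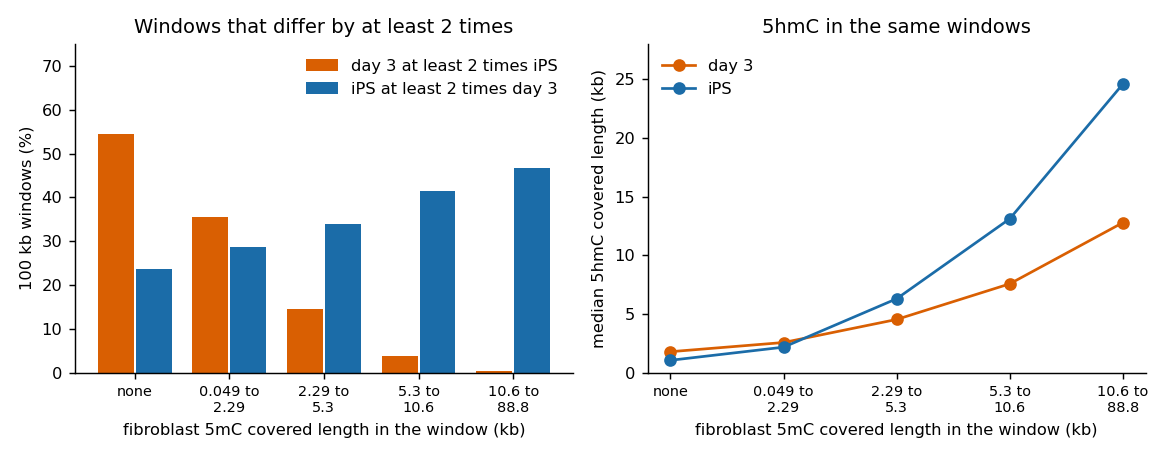
Left, share of 100 kb windows (%, y axis) with at least 2 times the 5hmC covered length at day 3 (orange) or in iPS cells (blue), by the length that fibroblast 5mC peaks cover in the window (kb, x axis). Right, median 5hmC covered length (kb) in the same windows, where day 3 is higher in the first 2 groups, iPS cells are higher in the others, and the last group has 12.8 kb and 24.6 kb in the last.

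The split of windows between the stages depended on the scaling, while the order of the groups by fibroblast 5mC was the same with equal numbers of peaks. Of all 19747 windows with a 5hmC peak of either list, 12342 had more in iPS cells and 7405 more at day 3, so 62.5% had more in iPS cells. With each window taken as a share of its list, a setting added after the data were seen, 48.8% had more in iPS cells, and with 116087 peaks of each list 47.5% had. On those lists 24.8% of 16019 windows had at least 2 times as much in iPS cells and 29.9% at least 2 times as much at day 3. The windows with 2 times as much at day 3 then made up 76.5% of those without fibroblast 5mC and 2.16% of those with the most. Covered lengths of the lists went together across the 19747 windows, with a Pearson r of 0.70 and a Spearman rho of 0.70, given as a description of neighbouring windows of 1 library a side.

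Single windows reached differences of over 50 kb in either direction. The largest gain from day 3 to iPS cells was in the window 117900001 to 118000000 of chromosome 11, where 5hmC went from 11.8 kb to 71.5 kb. Next came 125300001 to 125400000 of chromosome 4, where the day-3 list had 0 kb and the iPS list 57.6 kb in 40 peaks. The window 116300001 to 116400000 of chromosome 5 had 21.2 kb and 73.5 kb, and 172700001 to 172800000 of chromosome 2 had 0.691 kb and 52.5 kb. All 4 windows already carried 23.2 to 65.4 kb of 5mC in fibroblasts and 30.9 to 68.1 kb at day 3, and 14.2 to 40.95 kb in iPS cells. Fibroblast 5hmC covered 3.87 to 6.17 kb of each.

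The largest loss was in the window 126300001 to 126400000 of chromosome 3. It had 66.5 kb of 5hmC in 40 day-3 peaks and 13.6 kb in 16 iPS peaks, and it holds the best-scoring day-3 peak. 5mC covered 7.17 kb of it in the fibroblast list, 10.4 kb in the day-3 list and 1.51 kb in the iPS list. The window 76100001 to 76200000 of chromosome 11 had 78.3 kb of day-3 and 45.4 kb of iPS 5hmC, a difference of less than 2 times. For the window 154400001 to 154500000 of chromosome 1 the lengths were 62.7 kb and 31.2 kb, and for 101200001 to 101300000 of chromosome 6 they were 52.4 kb and 21.7 kb. Fibroblast 5mC covered 7.17 to 13.2 kb of the 4 windows with the largest losses, below each of the 4 windows with the largest gains. These lengths still fell in the groups of 5.30 to 10.6 kb and 10.6 to 88.8 kb. In those groups 3.70% and 0.442% of windows had at least 2 times as much at day 3. The largest losses were thus not in windows poor in fibroblast 5mC. Fibroblast 5hmC covered 1.30 to 4.53 kb. In these 4 windows the iPS list still held 16 to 27 peaks, so none had lost the mark altogether.

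Windows widely covered at both stages differed among themselves in 5mC. Window 3000001 to 3100000 of chromosome 11 had 71.9 kb of day-3 and 67.5 kb of iPS 5hmC, and all other 4 lists covered at least 75.4 kb there. Window 125500001 to 125600000 of chromosome 5 had 68.7 kb and 60.9 kb of 5hmC, with 10.8 kb in fibroblasts, while 5mC covered 51.8, 54.2 and 43.8 kb at the 3 stages.

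Unpaired peaks came in runs, and those of iPS cells were the longer. A run was counted as neighbouring unpaired peaks of 1 list with no peak of the other between them. Of the unpaired iPS peaks 42.2% stood in runs of at least 5 and 16.8% in runs of at least 10, against 18.7% and 3.97% of the unpaired day-3 peaks. The iPS list being longer makes its runs longer too. The regions in the next sentences were chosen after their values were seen. The longest iPS run held 141 peaks on chromosome 4 from 124986471 to 125580988, a stretch of 594.5 kb with 172.7 kb of iPS 5hmC and no day-3 5hmC peak. Fibroblast 5mC covered 64.2 kb of it, day-3 5mC 86.2 kb and iPS 5mC 54.1 kb, and fibroblast 5hmC 19.4 kb in 22 peaks. By the definition of a run the day-3 list was empty over this stretch, while the fibroblast list before it was not. The run also holds the third of the best-scoring unpaired iPS peaks and the window with the second-largest gain. These examples are thus 1 region and not separate cases. A further run of 76 iPS peaks lay on the same chromosome from 123713669 to 124123385, and 72 stood on chromosome 3 from 34557511 to 34899346.

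The longest day-3 run held 41 peaks on chromosome 2 from 117324075 to 117788311. Day-3 5hmC covered 39.4 kb of these 464.2 kb, and no iPS 5hmC peak lay there. Fibroblast 5mC covered 4.93 kb there, day-3 5mC 10.4 kb and iPS 5mC 0.562 kb. The next, with 35 peaks, was on chromosome 2 from 64215675 to 64821841, and the third, with 31 peaks, on chromosome X from 48028752 to 49242121. In the run on chromosome X fibroblast 5mC covered 1.56 kb and iPS 5mC 0 kb of 1213.4 kb.

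Chromosome X departed from the autosomes in direction. All 19 autosomes held more iPS than day-3 peaks, from 1.27 times as many on chromosome 3 to 1.76 times on chromosome 5. Chromosome X held 1004 day-3 peaks, or 0.865% of the list (0.813 to 0.920), and 422 iPS peaks, or 0.242% (0.220 to 0.267), a ratio of 0.420. The size of these shares depended on the score. They were 0.678% and 0.137% with a score of at least 100, 0.610% and 0.112% with the 50000 best peaks of each list, and 0.340% and 0.140% with the 10000 best, each time lower in iPS cells. Over the whole lists its density was 0.131 times that of the autosomes at day 3 and 0.0364 times in iPS cells. Of the X peaks 101 day-3 peaks, or 10.1% (8.35 to 12.1), had an iPS counterpart, against 43.6% to 54.4% on single autosomes. The iPS list held 2.62 peaks per Mb on chromosome X and 71.96 on the autosomes, so day-3 X peaks had few to meet. Counted from the iPS side 23.9% of X peaks had a day-3 counterpart (20.1 to 28.2), against 29.9% to 36.4% on single autosomes. Among its 272 windows with at least 1 kb, 177, or 65.1%, had at least 2 times as much 5hmC at day 3, against 10.2% to 27.1% on single autosomes and 19.2% over all windows. With 6.22 day-3 and 2.62 iPS peaks per Mb on chromosome X, 1 peak can decide whether a window there differs. Chromosome Y held 45 and 39 peaks, of which 25 and 30 had a counterpart.

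The unpaired day-3 peaks of chromosome X had less 5mC than all unpaired day-3 peaks and a like share of fibroblast 5hmC. Of these 903 peaks 27 lay on fibroblast 5mC (2.99%), 87 on day-3 5mC (9.63%), 14 on iPS 5mC (1.55%) and 39 on fibroblast 5hmC (4.32%). Over all unpaired day-3 peaks these shares were 10.03%, 20.8%, 3.68% and 4.57%. The 101 paired X peaks lay on the same lists in 36.6%, 60.4%, 27.7% and 40.6% of cases. Median score was 87.7 for the unpaired and 163.9 for the paired X peaks at day 3.

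Pooled over the autosomes, both lists were densest in the part with the highest coordinates, without a steady course between. Mouse chromosomes have their centromere at 1 end, where coordinates start. The autosomal span was divided into 10 equal parts. From the first to the last part, density went from 33.6 to 68.0 peaks per Mb at day 3 and from 46.0 to 122.0 in iPS cells. The ratio of iPS to day-3 peaks was 1.37 in the first part, 1.34 in the sixth, where it was lowest, and 1.79 in the last. The share of day-3 peaks with an iPS counterpart was 41.8% in the first part and 59.3% in the last, while that of iPS peaks with a day-3 counterpart stayed between 31.3% and 33.9%. More iPS peaks to meet per Mb thus accompanied the higher share at day 3.

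**Figure D5:**
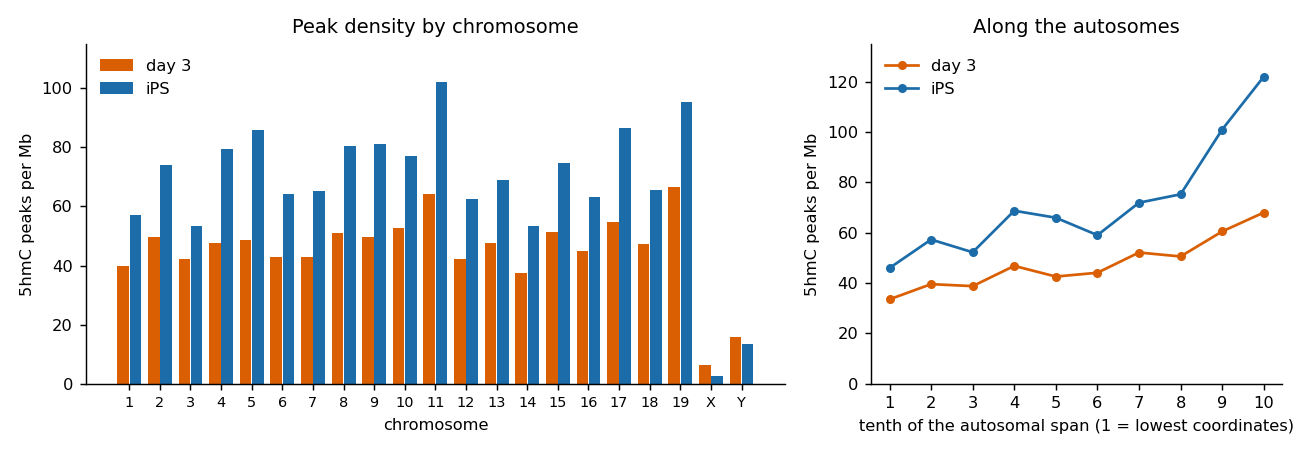
Left, 5hmC peaks per Mb (y axis) on each chromosome (x axis) at day 3 (orange) and in iPS cells (blue). Right, peaks per Mb in 10 equal parts of the autosomal span, from the lowest coordinates to the highest. Each autosome has the taller bar in iPS cells, chromosomes X and Y do not, and the last part reaches 68.0 and 122.0 peaks per Mb.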

How the data were processed

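5hmC and 5mC were measured by immunoprecipitation of sonicated, adapter-ligated genomic DNA and sequencing in 6 libraries, 1 per stage and mark. Per the labels' protocols, 500 ng of ligated DNA entered each reaction, and 14 to 16 amplification cycles and gel selection of 300 to 500 bp followed. Reads were handled with MACS 1.4.1, Bowtie 0.12.7 and CASAVA 1.8 on build mm9, per the submitters' processing notes. Each deposited file is the authors' peak list of 1 library, with a score per peak that has no stated scale and a lowest value of about 50. The sources used here do not state control libraries, settings, duplicate handling or read numbers. Libraries were grouped by their titles.

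Overlap (from 1 bp), covered length, distances and windows were computed with Python 3.11.15, numpy 2.4.6, pandas 2.3.3 and scipy 1.17.1, and tested on simulated data and against bedtools 2.31.1. Shares have 95% Wilson intervals, which take peaks as independent. The named regions are the 4 best-scoring and the widest peak of each class, the 4 windows with the largest gain and loss, and the 2 with the largest length in both, leaving out chromosome 18. Ties in score were settled by the greater width. The regions, comparisons and alternatives were chosen with earlier results of these data known. Coordinates are on mm9, counted from 1. The gene tables at hand are on another build, so the planned gene lists were left out and no sequence is printed.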

Additional observations from a re-analysis of the deposited data

Results flagged for a closer look

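From day 3 to iPS cells the list lengths of the marks went in opposite directions. No other contrast was checked for this. The 5hmC list was 1.50 times as long in iPS cells, and the 5mC list was 0.369 times as long. Each ratio compares 2 single libraries of unknown depth, and no test of the marks against each other was possible.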

How the results depend on the processing

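In the order share of day-3 peaks with an iPS counterpart, share of iPS peaks with a day-3 counterpart, and paired minus unpaired day-3 peaks on fibroblast 5mC, the reported values were 48.3%, 32.9% and 36.1 percentage points. They were 38.5%, 28.1% and 30.6 with a score of at least 100, 41.3%, 27.2% and 31.3 with 50% of the counted peak covered, 41.9%, 27.9% and 31.6 with its centre inside the other peak, and 50.9%, 36.1% and 39.0 with peaks within 1000 bp joined. Equal numbers gave 38.4%, 38.0% and 39.6 (116087 peaks), 28.1%, 28.05% and 44.4 (50000) and 16.2%, 16.4% and 42.5 (10000). With equal numbers, unpaired means without a partner among the peaks kept. Of the settings added after the data were seen, a gap of 1000 bp gave 60.2%, 44.1% and 31.3, and widths of 800 to 1000 bp gave 44.4%, 30.2% and 34.3. The difference on fibroblast 5mC kept its direction in all of these. Autosomes alone gave 48.6% for the first share. The ratio of list lengths was 1.39 both with the score filter and with joined peaks. Windows with more in iPS cells made up 57.6% with the score filter, 63.4% on autosomes and 65.6% over 1 Mb, but turned to 47.5%, 47.3% and 48.8% with 116087, 50000 and 10000 peaks of each list and to 48.8% as shares of each list; equal lengths remove the surplus of iPS peaks by construction. The chromosome X share at day 3 was 0.678% with the score filter, 0.610% and 0.340% with 50000 and 10000 peaks, and 0.955% with joined peaks. In iPS cells it was 0.137%, 0.112% and 0.140% in these 3 settings, 0.301% joined and 0.171% with 116087 peaks, below day 3 each time. No paired analysis was possible because each stage and mark has 1 library. Depth is unknown and limits every comparison of list lengths.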
